A study of Saccharomyces cerevisiae with 25 samples.

Results

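A set of 51 yeast ORFs had a translation efficiency (TE) that was higher by at least 1 on the log2 scale 4 h after the addition of tunicamycin (Tm) than before it, both in W303 and in eS7A-WT cells. TE is the ratio of ribosome footprints to RNA-seq reads on an ORF. It was computed from counts per 1000000 counts of a library (cpm) with 0.5 cpm added, as the mean log2 footprint cpm minus the mean log2 RNA-seq cpm of a strain and time, and the change from 0 h to 4 h was set against the median change of all ORFs with enough counts. Of 6696 ORFs listed, 5097 had a mean of at least 50 counts in each assay over the W303 and eS7A-WT libraries. A change of 1 or more was found for 139 of these in W303 (2.73%) and for 85 in eS7A-WT (1.67%), and 52 were in both. One of the 52 was HAC1, the mRNA spliced by Ire1 under ER stress, which was left out. The ORFs were thus chosen by their TE changes in the W303 and eS7A-WT libraries of 0 h and 4 h, and values from these libraries are given below as descriptions without a test. The eS7A-4KR libraries were not used to choose them. The W303 libraries of 1 h and 2 h entered the count minimum alone. The 4 copies of ASP3 had identical counts in every library, which leaves 48 distinct measurements.

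Tm blocks N-glycosylation in the ER, so that misfolded proteins accumulate there. In yeast the resulting unfolded protein response (UPR) runs from Ire1 through splicing of HAC1 mRNA to the transcription of genes of ER folding and degradation, and long stress also switches on genes of the general stress response, the cell wall and starvation. A change in TE shows that footprints and mRNA of an ORF moved by different amounts. It can come from either side of the ratio, and both sides are therefore given for the ORFs described here. eS7 is a protein of the small ribosomal subunit, and the E3 ligase Not4 attaches single ubiquitins to lysines of its form eS7A.

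All cells were MATa yeast with the markers ade2, his3, leu2, trp1, ura3 and can1, treated with 1 µg/mL Tm. The eS7A-4KR cells lack the chromosomal genes RPS7A and RPS7B and express HA-tagged eS7A, with the lysines that Not4 ubiquitinates changed to arginine, from a centromeric plasmid (pRS315) under its own promoter. The eS7A-WT cells carry the same deletions and the same plasmid with the lysines kept, and W303 (W303-1a) cells have both chromosomal genes. The eS7A-4KR and eS7A-WT cells were harvested at 0 h and 4 h, and W303 cells at 0, 1, 2 and 4 h. There were 2 libraries for each strain, time and assay, except that W303 had 1 library per assay at 1, 2 and 4 h and that untreated eS7A-WT had 1 RNA-seq library here. The study calls the replicates independent biological replicates.

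Footprint libraries held 3423907 to 33858553 counts and RNA-seq libraries 28309641 to 49246452. The 7 genes specific to MATa cells summed to 314–660 cpm of RNA-seq reads in every library against 10.2–37.5 cpm for the 4 genes specific to MATα cells. RPS7B mRNA was at 2.23–4.5 cpm in eS7A-4KR and 1.27–7.51 cpm in eS7A-WT, against 24.5–315 cpm in W303, a check that does not tell the 2 plasmid strains apart. The 28 mitochondrial ORFs summed to 1623–2673 cpm of RNA-seq reads in eS7A-4KR libraries, 10829–23597 cpm in eS7A-WT and 9204–19116 cpm in W303. Single ORFs differed by more: COX1 was at 1.47–1.89 cpm in eS7A-4KR, 1141–2772 cpm in eS7A-WT and 961–2514 cpm in W303. The eS7A-4KR cells thus differed strongly from the other strains in mitochondrial RNA at both times, with COX1 reads nearly absent. The eS7A mutation and this difference cannot be told apart in these libraries.

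By the formula of the selection, the TE changes of the 51 ORFs in eS7A-4KR ran from −0.53 to 1.46 with a median of 0.62, against a median of 0 over the 5097 ORFs by construction. In the strains that chose them, they ran from 1.03 to 4.00 with a median of 1.44 in eS7A-WT and from 1.01 to 4.37 with a median of 1.65 in W303. The change was above 0 for 47 of the 51 ORFs in eS7A-4KR. It reached 1 or more for 11 of them, against 0.373% of all kept ORFs, and for 6 without replicate 2 of the untreated footprints. It lay above the 90th percentile of all kept ORFs, a change of 0.31, for 35 of the 51, against 10% of all. For 35 of the 51 every one of the 16 combinations of single eS7A-4KR libraries gave a change above 0, against 12.1% of all kept ORFs. The median was 0.45 without replicate 2 of the untreated eS7A-4KR footprints, and it lay between 0.57 and 0.69 without any other single library of that strain. The 4 ORFs at or below 0 were AI1, CPP3, RRT8 and YDR133C. Counts are shares of a library, so the changes are relative to the other ORFs. Each library was made from many cells together, so a larger share of cells that express a gene and more RNA per cell cannot be told apart.

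**Figure D1:**
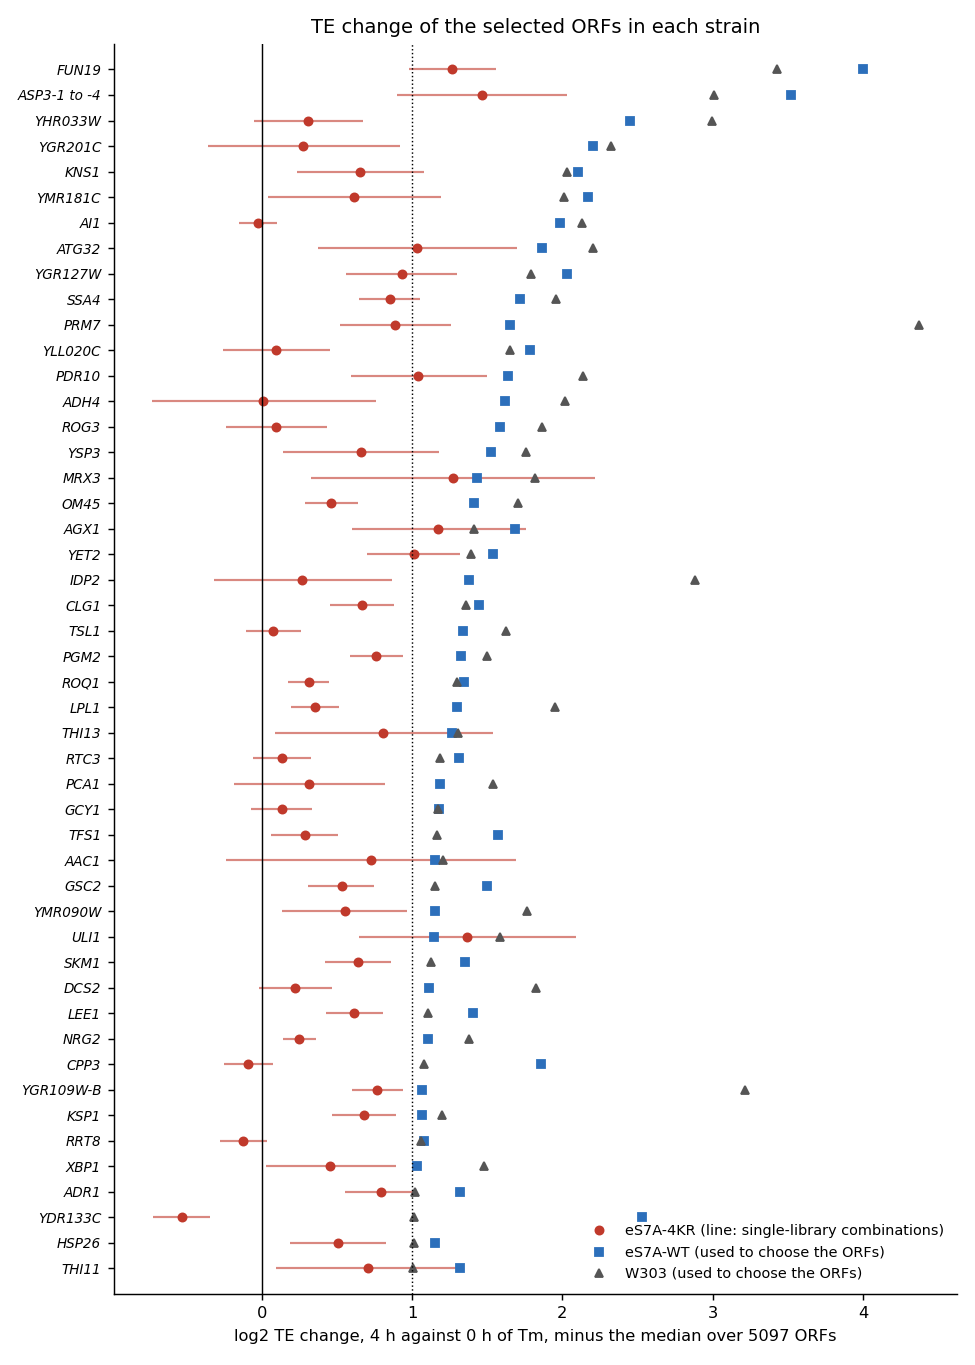
Log2 TE change at 4 h against 0 h of Tm, minus the median over 5097 ORFs, for each of the 48 distinct measurements, in eS7A-4KR (circles, with a line over the 16 combinations of single libraries), eS7A-WT (squares) and W303 (triangles). The dotted line at 1 is the value that chose the ORFs in eS7A-WT and W303. Most circles lie between 0 and 1, and those of FUN19, ASP3, AGX1, ULI1, MRX3, PDR10, ATG32 and YET2 lie at 1 or more.

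The statistical test compared the eS7A-4KR libraries of 4 h and 0 h. Its count filter, scaling and spread came from all 15 eS7A libraries, so eS7A-WT libraries entered these settings. With edgeR's quasi-likelihood test and Benjamini-Hochberg adjustment over all 5558 ORFs tested in the eS7A strains, TE rose in eS7A-4KR for 9 of the 51 ORFs at an adjusted p below 0.01, against 0.378% of all ORFs tested, and fell for 0 by edgeR and by DESeq2, against 0.522% by edgeR. At an unadjusted p below 0.05 it was higher for 30, against 4.8%, and lower for 1, against 6.59%. The 9 are FUN19, the 4 copies of ASP3, AGX1, SSA4, PGM2 and PDR10, which makes 6 distinct measurements. FUN19 and ASP3 were called without each of the 8 eS7A-4KR libraries in turn. AGX1 was not called in 4 of these 8 fits, SSA4 in 6, PGM2 in 6 and PDR10 in 7. The number of ORFs called was 17 without replicate 1 of the untreated footprints, 5 without replicate 2 of the untreated footprints, 5 without replicate 2 of the untreated RNA-seq and 5 without replicate 2 of the 4 h RNA-seq. With a single library left in a group, that library is assumed to vary like those of the other groups. DESeq2 called 11 of the 51. Scaling by total counts in place of TMM, edgeR's trimmed mean scaling, called the 4 ASP3 copies alone, with 25 ORFs up and 6 down among all tested in place of 21 up and 29 down. The newer quasi-likelihood method of edgeR called 3, FUN19, SSA4 and YGR127W. A fit of the eS7A-4KR libraries alone called 14. With the replicate number as a block 21 were called, and 24 with the block within each assay. Beyond the 9, the 21 hold ADR1, ATG32, CLG1, KNS1, KSP1, MRX3, SKM1, THI11, THI13, ULI1, YET2 and YGR127W. The count of 9 thus depends on leaving out the block.

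Footprints of the 51 ORFs differed between the untreated libraries of eS7A-4KR. Replicate 1 had more footprint cpm than replicate 2 for all 51, with a median log2 difference of 0.51, against 88.1% and 0.33 over the 5097 ORFs. In eS7A-WT the untreated replicate 1 was higher for 48 of the 51, against 90.8%, with a median of 0.48. The 4 h footprints had the same direction. Replicate 1 was higher for 43 of the 51 in eS7A-4KR, with a median of 0.26, against 4133 of the 5097 ORFs. In eS7A-WT it was higher for 39 at 4 h, with a median of 0.22, against 4427. The untreated RNA-seq libraries of eS7A-4KR differed by −0.05. Depth also limits the values: 23 of the 51 had fewer than 10 footprints in at least 1 untreated library of W303 or eS7A-WT, and 1 (AI1) had fewer than 10 in an untreated library of eS7A-4KR.

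Most of the 51 ORFs also had more mRNA after Tm. In eS7A-4KR mRNA rose for 40 of the 51 at an adjusted p below 0.01 by edgeR, against 17.3% of all ORFs tested, and fell for 0 by edgeR and by DESeq2, against 13.5% by edgeR. At an unadjusted p below 0.05 mRNA was lower for 1, against 24.4%. Footprints rose for 47, against 18.1%, and fell for 1 (YDR133C), against 19.8%. mRNA rose without a called change in TE for 32 of the 51. By the formula of the selection, the median log2 mRNA change of the 51 was 0.80 in eS7A-4KR, 2.18 in eS7A-WT and 2.44 in W303, and the median footprint change 1.33 in eS7A-4KR, 3.79 in eS7A-WT and 3.97 in W303. The median change over the 5097 ORFs, which was subtracted, was 0.14 for mRNA and 0.11 for footprints in eS7A-4KR, 0.59 and 0.78 in eS7A-WT, and 0.69 and 0.92 in W303. With total counts in place of TMM, mRNA was called for 25 of the 51, with 758 ORFs up and 288 down among all tested in place of 964 up and 751 down. With the selection's formula 19 of the 51 had an mRNA change of 1 or more in eS7A-4KR, against 4.87% of kept ORFs, 44 in eS7A-WT, against 16.4%, and 39 in W303, against 18.5%. A footprint change of 1 or more was found for 37 in eS7A-4KR, against 6.77%, for 50 in eS7A-WT, against 19.9%, and for 50 in W303, against 19.6%.

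**Figure D2:**
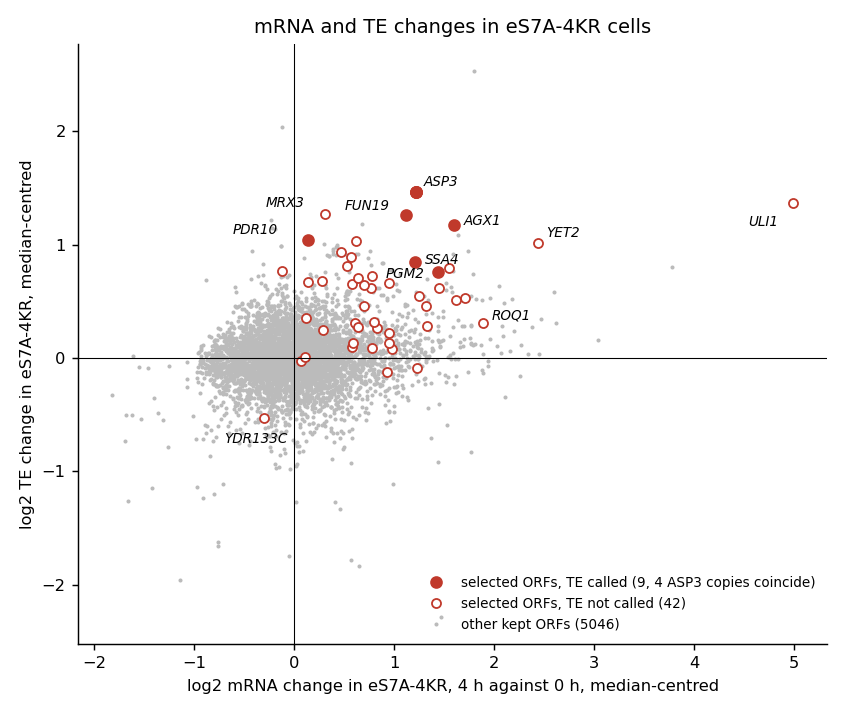
Log2 mRNA change (x axis) and log2 TE change (y axis) in eS7A-4KR cells at 4 h against 0 h of Tm, each minus its median over 5097 ORFs. Filled circles are the 9 selected ORFs with called TE (the 4 ASP3 copies coincide), open circles the 42 others and grey dots the 5046 remaining ORFs. The selected ORFs lie mostly above and to the right of 0, with ULI1 farthest right at 4.99 and YDR133C the lowest at −0.53.

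The share of selected ORFs was higher among those with more mRNA after Tm. By the smaller of the mRNA changes in W303 and eS7A-WT, they made up 0.179% of the 2801 kept ORFs below 0, 0.512% of the 1562 between 0 and 1, 2.64% of the 493 between 1 and 2, 5.42% of the 166 between 2 and 3 and 21.6% of the 74 at 3 or more. These classes share the libraries that chose the ORFs, and the shares are a description. The count minimum was a mean that included treated libraries, so an ORF with few untreated reads could enter through its rise. CPP3, for example, had RNA-seq counts of 4 and 3 in untreated W303 and 545 at 4 h. Among the 58 ORFs with an mRNA change of 3 or more that were not selected, the median TE change in eS7A-4KR was 0.15, and it was above 0 for 48 of them. The 16 selected ORFs of that class had a median of 0.54.

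Before treatment the selected ORFs had a low TE. Relative to the median of the 5097 ORFs, the median log2 TE was −0.94 in untreated eS7A-4KR, −1.32 in untreated eS7A-WT and −1.76 in untreated W303. At 4 h it was −0.43 in eS7A-4KR, 0.04 in eS7A-WT and 0.08 in W303. TE lay below the median of all ORFs for 34 of the 51 at 4 h and 40 at 0 h in eS7A-4KR, for 24 at 4 h and 46 at 0 h in eS7A-WT, and for 22 at 4 h and 47 at 0 h in W303. A low TE at 0 h in W303 and eS7A-WT favoured selection. The eS7A-4KR libraries took no part in it, but an ORF can have a low TE in every strain. ASP3, for example, was at −5.00 in eS7A-4KR, −5.56 in eS7A-WT and −5.16 in W303 at 0 h. The low TE in untreated eS7A-4KR is therefore not free of the selection either.

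**Figure D3:**
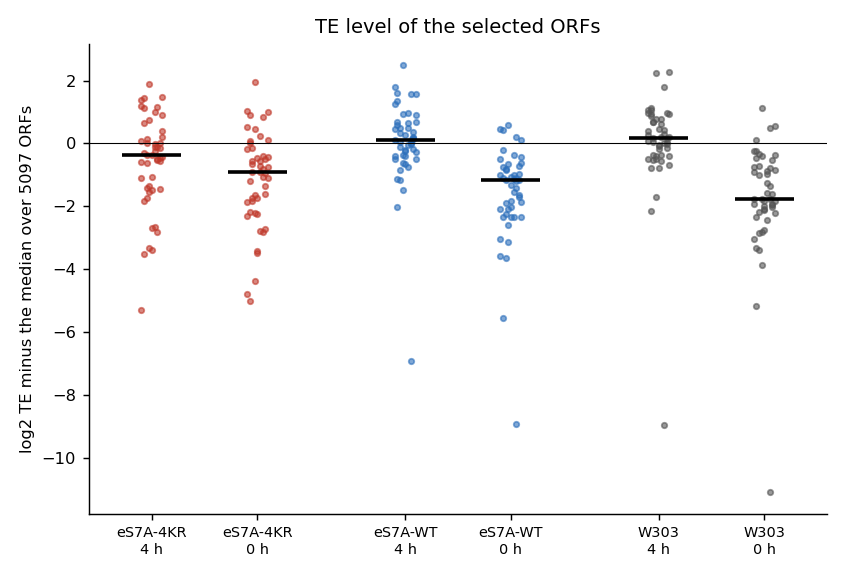
Log2 TE of the 48 distinct measurements, minus the median over 5097 ORFs, at 4 h and 0 h in eS7A-4KR, eS7A-WT and W303. Points are ORFs and bars are medians over the 48, which lie below 0 at 0 h in each strain and closer to 0 at 4 h. The lowest points in eS7A-WT and W303 are AI1.

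The untreated eS7A-4KR cells already differed from untreated eS7A-WT cells in these ORFs. After subtraction of the median difference over kept ORFs, mRNA at 0 h was higher in eS7A-4KR than in eS7A-WT for 44 of the 51. By construction this held for 2548 of 5097 kept ORFs. The median log2 difference of the 51 was 1.27 for mRNA and 1.67 for footprints. TE at 0 h was higher in eS7A-4KR for 39 of the 51, against 45.1%, with a median difference of 0.56. At 4 h the median mRNA difference between the strains, after the same kind of subtraction, was −0.09. Without the mitochondrial AI1, the selected ORFs took 0.598% ± 0.020 of footprints at 4 h and 0.156% ± 0.025 at 0 h in eS7A-4KR (SD, n = 2 each), against 1.05% ± 0.024 at 4 h and 0.0231% ± 0.0066 at 0 h in eS7A-WT (SD, n = 2 each). The change in TE was smaller in eS7A-4KR than in eS7A-WT for 50 of the 51, against 2513 of 5097 kept ORFs, and the change in mRNA was smaller for 45, against 49.8%. Since the eS7A-WT libraries chose the ORFs for a large change, these strain differences were not tested.

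FUN19 (YAL034C, chromosome I, positions 80710 to 81951 in assembly R64), an ORF without a known molecular function, had the largest change by the smaller of both values, 4.00 in eS7A-WT and 3.43 in W303. It had 63.3 and 51.2 cpm of footprints in eS7A-4KR at 4 h, against 11.7 and 8.05 cpm at 0 h. Its mRNA was at 71.6 and 59.8 cpm at 4 h, against 27.2 and 26.7 cpm at 0 h. In both assays the 4 h libraries lay above the 0 h libraries, by more in footprints. Its TE rose by 1.27 ± 0.16 in eS7A-4KR (log2 ± SE, edgeR adjusted p = 3.44e-05), which is 2.42-fold. In eS7A-WT the FUN19 footprints were at 129 and 107 cpm at 4 h, against 0.473 and 0.256 cpm at 0 h, counts of 16 and 7 in the untreated libraries. The untreated eS7A-4KR cells thus had more FUN19 footprints than the untreated cells of the other strains, and fewer at 4 h.

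**Figure D4:**
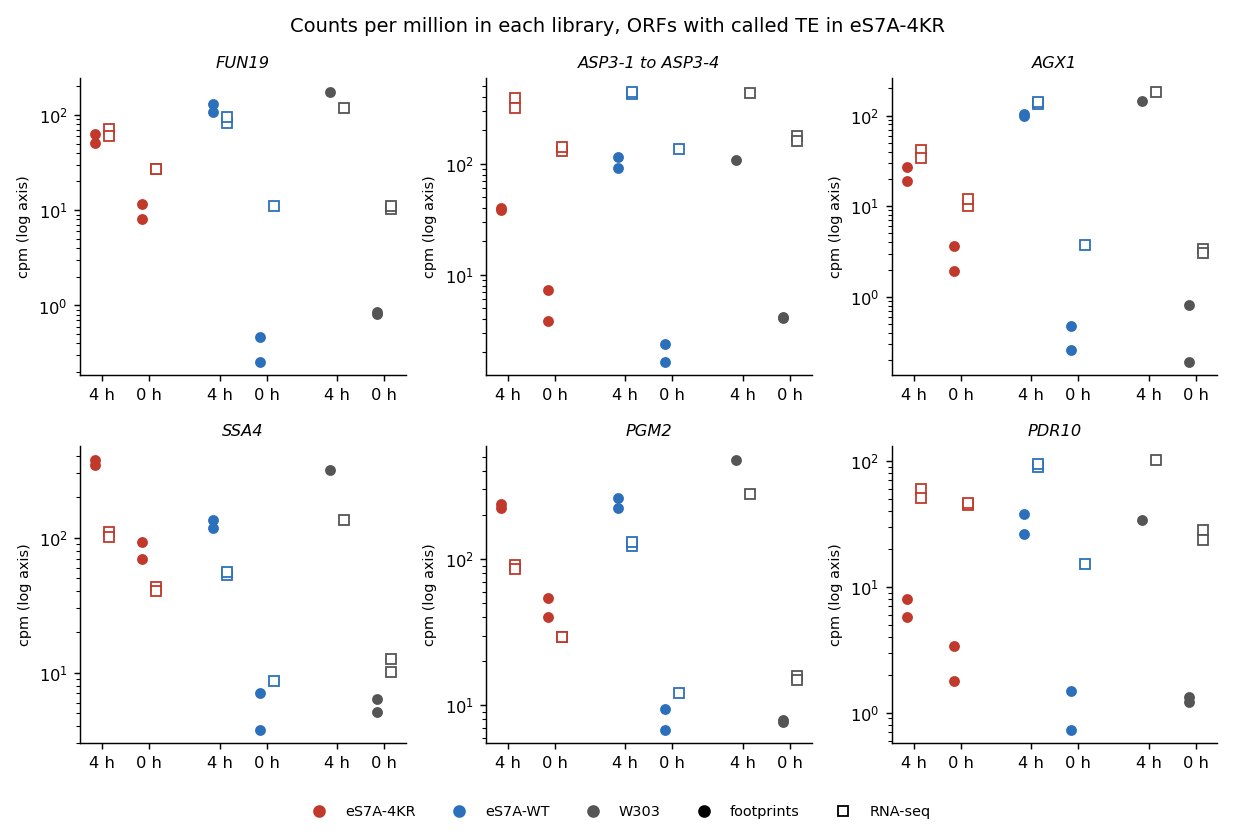
Values in cpm on a log axis in every library at 4 h and 0 h of Tm for the 6 distinct measurements with called TE in eS7A-4KR, in eS7A-4KR (red), eS7A-WT (blue) and W303 (grey). Filled circles are footprints and open squares RNA-seq. In each panel footprints at 4 h lie above those at 0 h in all 3 strains, and the step is larger in eS7A-WT and W303 than in eS7A-4KR.

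Among the 10 ORFs of amino acid, thiamine, alcohol and lipid metabolism, TE rose in eS7A-4KR for 5, mRNA for 8 and footprints for 8. The ASP3 copies, 1 distinct measurement, enter each of these numbers 4 times. Over all ORFs tested, TE rose for 0.378%, mRNA for 17.3% and footprints for 18.1%, shares that also apply to the groups below. ASP3-1 to ASP3-4 encode the cell wall asparaginase that releases ammonia from asparagine when nitrogen is short, and stand as pairs on chromosome XII with 2563 bases between the members of a pair. As their counts were identical, no copy can be told from another. They had 38.6 and 40.1 cpm of footprints in eS7A-4KR at 4 h, against 7.24 and 3.81 cpm at 0 h. The mRNA was at 389 and 317 cpm at 4 h, against 131 and 142 cpm at 0 h. Footprints and mRNA did not overlap between the times. TE rose by 1.51 ± 0.22 (log2 ± SE, edgeR adjusted p = 0.000153). In the strains that chose it, and by that formula, its TE change of 3.52 in eS7A-WT stood beside an mRNA change of 1.08, and its TE change of 3.01 in W303 beside an mRNA change of 0.66, while its TE level lay far below the median of all ORFs, at −3.52 at 4 h and −5.00 at 0 h in eS7A-4KR.

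AGX1, the alanine:glyoxylate aminotransferase, lies on chromosome VI (76831 to 77988), 683 bases from the end of HAC1 (75179 to 76147). It had 27.0 and 19.1 cpm of footprints in eS7A-4KR at 4 h, against 3.6 and 1.93 cpm at 0 h. mRNA of this ORF was at 41.7 and 34.3 cpm at 4 h, against 10 and 12 cpm at 0 h. Both assays separated the times, and TE rose by 1.28 ± 0.24 (log2 ± SE, edgeR adjusted p = 0.00392). With the selection's formula its mRNA change was 1.60 in eS7A-4KR, 4.43 in eS7A-WT and 4.94 in W303.

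ADH4, an alcohol dehydrogenase known from zinc-limited cells, had 5.98 and 2.37 cpm of footprints in eS7A-4KR at 4 h and 3.88 and 2.63 cpm at 0 h, which overlap, and the log2 TE change was 0.05 ± 0.31 (edgeR adjusted p = 0.996). The selection's formula gave 0.01 in eS7A-4KR, 1.62 in eS7A-WT and 2.02 in W303. Without single libraries its estimate ran from −0.54 to 0.51. THI11, which with THI13 belongs to a family of nearly identical genes for the pyrimidine part of thiamine, had 45.8 and 34.4 cpm of footprints at 4 h against 20 and 10.1 cpm at 0 h, and a log2 TE change of 0.65 ± 0.20 (edgeR adjusted p = 0.101), which ran from 0.41 to 1.04 without single libraries. Reads shared by the family could be split between its members. By edgeR THI13 gave a TE change of 0.74, IDP2 (cytosolic isocitrate dehydrogenase) 0.27 and LPL1 (a phospholipase of lipid droplets) 0.34, and none of these 3 passed the test for TE in eS7A-4KR. mRNA of IDP2, THI11 and THI13 rose there, that of LPL1 and ADH4 did not pass.

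A group of 8 ORFs held chaperones and trehalose, sugar and cell wall enzymes. It also held DCS2, which is none of these, and RTC3, for which no function is given here. mRNA and footprints rose in eS7A-4KR for all 8, and TE for SSA4 and PGM2. SSA4, the heat-inducible Hsp70 of the cytosol, has close relatives among the Hsp70 genes with which it could share reads. It had 378 and 347 cpm of footprints at 4 h, against 93.3 and 69.9 cpm at 0 h. RNA-seq gave 110 and 102 cpm at 4 h, against 42.7 and 40.3 cpm at 0 h. The times did not overlap in either assay, and TE rose by 0.83 ± 0.17 (log2 ± SE, edgeR adjusted p = 0.00756). PGM2, the phosphoglucomutase that links glucose-6-phosphate to glycogen and trehalose, had 238 and 225 cpm of footprints at 4 h, against 54.1 and 40.2 cpm at 0 h. Its mRNA level was 91.2 and 85.7 cpm at 4 h, against 29.5 and 29.2 cpm at 0 h. TE rose by 0.74 ± 0.15 (log2 ± SE, edgeR adjusted p = 0.00806).

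The other 6 of this group had mRNA rises without a called TE change. TSL1, a subunit of the trehalose synthase complex, had 432 and 400 cpm of footprints in eS7A-4KR at 4 h, against 203 and 169 cpm at 0 h, and 451 and 382 cpm of mRNA at 4 h against 189 and 192 cpm at 0 h. Footprints and mRNA were both higher at 4 h by about the same factor, and the log2 TE change was 0.05 ± 0.24 (edgeR adjusted p = 0.988). In eS7A-WT, TSL1 footprints were at 1034 and 1021 cpm at 4 h, against 17.8 and 10.9 cpm at 0 h, so that the strains lay further apart at 0 h than at 4 h. HSP26, a small heat shock protein, had 1086 and 1079 cpm of footprints in eS7A-4KR at 4 h against 231 and 229 cpm at 0 h, and its log2 TE change was 0.48 ± 0.24 (edgeR adjusted p = 0.456). In untreated eS7A-WT it had 5.94 and 4.28 cpm.

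DCS2, an inhibitor of the scavenger decapping enzyme Dcs1, had 59.8 and 47.6 cpm of footprints at 4 h in eS7A-4KR against 25.5 and 18.5 cpm at 0 h, with a log2 TE change of 0.19 ± 0.16 (edgeR adjusted p = 0.793). GSC2, a catalytic subunit of the β-1,3-glucan synthase that builds cell wall under stress, had 1142 and 1169 cpm of footprints at 4 h against 251 and 207 cpm at 0 h, and 930 and 853 cpm of mRNA at 4 h against 250 and 246 cpm at 0 h. Its mRNA rose by 1.68 ± 0.21 (log2 ± SE, edgeR adjusted p = 8.26e-07), while the TE change was 0.52 ± 0.29 (adjusted p = 0.560). GCY1 (a glycerol dehydrogenase) and RTC3 had TE changes of 0.11 and 0.09, neither past the test.

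The 5 ORFs of the ER and of protein turnover had a median log2 mRNA change, by the formula of the selection, of 1.89 in eS7A-4KR, 4.68 in eS7A-WT and 4.29 in W303. mRNA and footprints rose in eS7A-4KR for all 5 and TE for 0. With the replicate number as a block, TE was called for ULI1 and YET2. ULI1, named for its induction by the UPR, had 211 and 197 cpm of footprints at 4 h, against 3.17 and 0.967 cpm at 0 h. Its mRNA was at 165 and 143 cpm at 4 h, against 4.06 and 3.74 cpm at 0 h. The untreated footprint replicates differed by a log2 of 1.32, the widest gap of the 51 ORFs in these libraries. mRNA rose by 5.13 ± 0.23 (log2 ± SE, edgeR adjusted p = 5.32e-14), and the TE change of 1.35 ± 0.33 did not pass (adjusted p = 0.0259) and ran from 0.92 to 2.29 without single libraries.

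YET2, of the family of the ER membrane protein BAP31, had 65.9 and 70.2 cpm of footprints in eS7A-4KR at 4 h against 5.96 and 4.78 cpm at 0 h, and 25.7 and 21.9 cpm of mRNA at 4 h against 3.36 and 3.78 cpm at 0 h. Its mRNA rose by 2.57 ± 0.16, and its TE change of 0.97 ± 0.23 did not pass (edgeR adjusted p = 0.0224). ROQ1, which redirects the ubiquitin ligase Ubr1 to misfolded proteins under stress, had 37.2 and 32.4 cpm of footprints at 4 h against 7.57 and 5.80 cpm at 0 h, and an mRNA rise of 2.07 ± 0.16 with a TE change of 0.17 ± 0.22 (edgeR adjusted p = 0.899). TFS1, an inhibitor of carboxypeptidase Y, and YSP3, a putative subtilisin-like protease, had TE changes of 0.26 and 0.62 that did not pass.

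Of the 9 ORFs of signalling and transcription, footprints rose in eS7A-4KR for all 9, mRNA for 6 and TE for 0. KNS1, a LAMMER family protein kinase, had 91.5 and 66.2 cpm of footprints at 4 h, against 38.3 and 24.3 cpm at 0 h. mRNA of this ORF was at 136 and 115 cpm at 4 h, against 76.2 and 75.1 cpm at 0 h. Both assays separated the times, and the TE change of 0.63 ± 0.16 did not pass (log2 ± SE, edgeR adjusted p = 0.0397). XBP1, a stress-induced repressor of transcription that is no relative of the metazoan UPR factor of the same name, had 84.3 and 59.7 cpm of footprints at 4 h against 24.5 and 14.7 cpm at 0 h, with a TE change of 0.42 ± 0.19 (edgeR adjusted p = 0.371) that ran from 0.27 to 0.67 without single libraries.

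The kinase KSP1 had a TE change of 0.66 in eS7A-4KR by edgeR, and SKM1, a kinase of the PAK family, one of 0.63. CLG1, a cyclin-like partner of the kinase Pho85, gave 0.66, the α-arrestin ROG3 0.11, the activator of glucose-repressed genes ADR1 0.78, the repressor NRG2 0.24 and the zinc finger protein LEE1 0.57. None of these 7 passed the test for TE. CLG1, KSP1 and NRG2 are the 3 of the 9 whose mRNA did not pass, with log2 changes of 0.12, 0.26 and 0.28. CLG1 also differed from most in the strains that chose it, with an mRNA change of −0.39 beside a footprint change of 1.05 in eS7A-WT, and of −0.16 beside 1.16 in W303, by the formula of the selection.

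Among the 5 ORFs of mitochondria, footprints rose in eS7A-4KR for 4, mRNA for 3 and TE for 0. With the replicate number as a block, TE was called for ATG32 and MRX3. ATG32, the receptor that marks mitochondria for autophagy, had 23.2 and 18.0 cpm of footprints at 4 h, against 8.90 and 3.6 cpm at 0 h. RNA-seq gave 25.2 and 21.2 cpm at 4 h, against 13.6 and 13.3 cpm at 0 h. The times did not overlap, but the untreated footprint replicates lay apart, and the TE change of 0.96 ± 0.24 did not pass (edgeR adjusted p = 0.0306) and ran from 0.62 to 1.59 without single libraries. OM45, of the outer mitochondrial membrane, AAC1, an ADP/ATP carrier, and MRX3 gave TE changes of 0.43, 0.91 and 1.31 by edgeR that did not pass. For MRX3 the 16 combinations of single libraries ran from 0.33 to 2.22 by the formula of the selection.

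The fifth of these, AI1 (Q0050, mitochondrial positions 13818 to 16322), is encoded in an intron of COX1 and overlaps COX1 and 4 other intron ORFs in the annotation. It had 2.75 and 2.74 cpm of RNA-seq reads in eS7A-4KR at 4 h and 2.14 and 2.5 cpm at 0 h, against 4086 and 3799 cpm at 4 h and 2154 cpm at 0 h in eS7A-WT. Footprints in eS7A-4KR were counts of 0 to 2 per library. No eS7A-4KR library came near those of the other strains in AI1 RNA, and its TE change there, 0.68 ± 1.29 by edgeR, was not measurable at this depth. Its TE in eS7A-WT was −6.91 at 4 h and −8.92 at 0 h, and in W303 −8.96 at 4 h and −11.09 at 0 h, with footprints of 1 to 18 counts per W303 library.

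Of the 5 transport and membrane proteins, footprints rose in eS7A-4KR for all 5, mRNA for 3 and TE for 1. PDR10, an ABC transporter of the multidrug resistance family, had 7.97 and 5.71 cpm of footprints at 4 h, against 3.41 and 1.77 cpm at 0 h. Its mRNA level was 59.8 and 50.7 cpm at 4 h, against 44.6 and 46.0 cpm at 0 h. Footprints and mRNA were higher in both 4 h libraries, the mRNA change of 0.12 ± 0.12 did not pass (edgeR adjusted p = 0.439), and TE rose by 1.12 ± 0.24 (edgeR adjusted p = 0.00866). By the formula of the selection its mRNA change was 0.14 in eS7A-4KR, 1.96 in eS7A-WT and 1.27 in W303.

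PCA1, a P-type ATPase that exports cadmium, gave a TE change of 0.30 in eS7A-4KR by edgeR, and PRM7, a gene regulated by pheromone, one of 0.98 ± 0.32 (edgeR adjusted p = 0.148). PRM7 had the largest TE change of the 51 in W303, 4.37, against 1.65 in eS7A-WT. The W303 value rests on footprint counts of 2 and 5 in the untreated libraries and 87 in the 1 library of 4 h. RRT8 and CPP3 (YDR034W-B), a small membrane protein, had TE changes below 0, −0.15 and −0.20, that did not pass, although their mRNA rose, by 0.93 and 1.32. Their footprints rose as well, by 0.78 for RRT8 and 1.12 for CPP3.

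For the remaining 9 ORFs no role is given here. They are uncharacterised, lack an entry in the annotation or, for YGR109W-B, belong to a retrotransposon. TE rose only for FUN19, described above. With the replicate number as a block, TE was also called for YGR127W. YHR033W had 22.6 and 18.1 cpm of footprints in eS7A-4KR at 4 h, against 12.3 and 7.73 cpm at 0 h. Its mRNA was at 45.2 and 38.2 cpm at 4 h, against 23.3 and 25.9 cpm at 0 h. The times did not overlap, and the TE change was 0.29 ± 0.19 (edgeR adjusted p = 0.674). By the formula of the selection it was 0.31 in eS7A-4KR, 2.45 in eS7A-WT and 3.00 in W303. YGR201C had 6.90 and 3.39 cpm of footprints at 4 h against 2.65 and 1.72 cpm at 0 h, with a TE change of 0.36 ± 0.30 (edgeR adjusted p = 0.784). YMR181C, YGR127W and YMR090W gave 0.56, 0.90 and 0.52, with mRNA rises that passed.

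YGR109W-B, the Gag-Pol ORF of a Ty3 retrotransposon on chromosome VII, had 9.28 and 7.06 cpm of footprints in eS7A-4KR at 4 h, against 5.21 and 4.08 cpm at 0 h. mRNA of this ORF was at 44.7 and 40.0 cpm at 4 h and 40.3 and 43.2 cpm at 0 h. Footprints separated the times and mRNA overlapped, and the TE change of 0.81 ± 0.21 did not pass (edgeR adjusted p = 0.0390). YLL020C, numbered next to KNS1 (YLL019C), and YDR133C are the 2 of the 51 that the annotation used here does not list. Their overlap with neighbouring ORFs was therefore not checked. Their reads could be shared with other ORFs, those of YLL020C with KNS1, and these values may not be independent. YLL020C had a TE change of 0.15.

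YDR133C went the other way in eS7A-4KR. It had 2.07 and 1.51 cpm of footprints at 4 h, against 3.50 and 3.01 cpm at 0 h. RNA-seq gave 71.3 and 65.5 cpm at 4 h, against 73.7 and 78.9 cpm at 0 h. All 4 h libraries lay below all 0 h libraries. Footprints fell by 1.02 on the log2 scale (SE 0.29, edgeR adjusted p = 0.00499), and the changes of mRNA (−0.32 ± 0.14, adjusted p = 0.0570) and TE (−0.70 ± 0.32, adjusted p = 0.389) did not pass. Its TE changes of 2.53 in eS7A-WT and 1.01 in W303 stood beside mRNA changes of −2.86 and −2.95 in these strains, beside footprint changes of −0.33 and −1.98, all after subtraction of the median over all ORFs. It is the 1 ORF of the 51 with a footprint change below 0 in all 3 strains by this formula. In eS7A-WT the sign depends on that subtraction, as the footprints were at 11.1 and 14.2 cpm at 4 h, against 9.04 and 9.14 cpm at 0 h.

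The W303 time course adds the times of 1 h and 2 h. The median TE change of the 51 ORFs against 0 h was 0.72 after 1 h, 1.30 after 2 h and 1.65 after 4 h. It was 1 or more for 16 ORFs after 1 h, against 0.569% of kept ORFs, and for 38 after 2 h, against 2.28%. The median mRNA change was 0.40 after 1 h, 1.45 after 2 h and 2.44 after 4 h, with 8 ORFs at 1 or more after 1 h, against 4.49%, and 30 after 2 h, against 16.3%. The median footprint change was 1.03 after 1 h, 2.91 after 2 h and 3.97 after 4 h, with 26 ORFs at 1 or more after 1 h, against 5.24%, and 48 after 2 h, against 17.1%. These values share the untreated libraries with the selection. The difference between 2 h and 1 h does not, although both libraries of each assay entered the count minimum. After subtraction of the median over kept ORFs, TE was higher at 2 h than at 1 h for 48 of the 51 ORFs, with a median of 0.69. For kept ORFs the values are 2548 of 5097 and 0 by construction. It was higher by 1 or more for 18, against 0.785%. As W303 had 1 library per assay at 1 h and at 2 h, these differences have no replicate check, and they are given as values without a test.

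**Figure D5:**
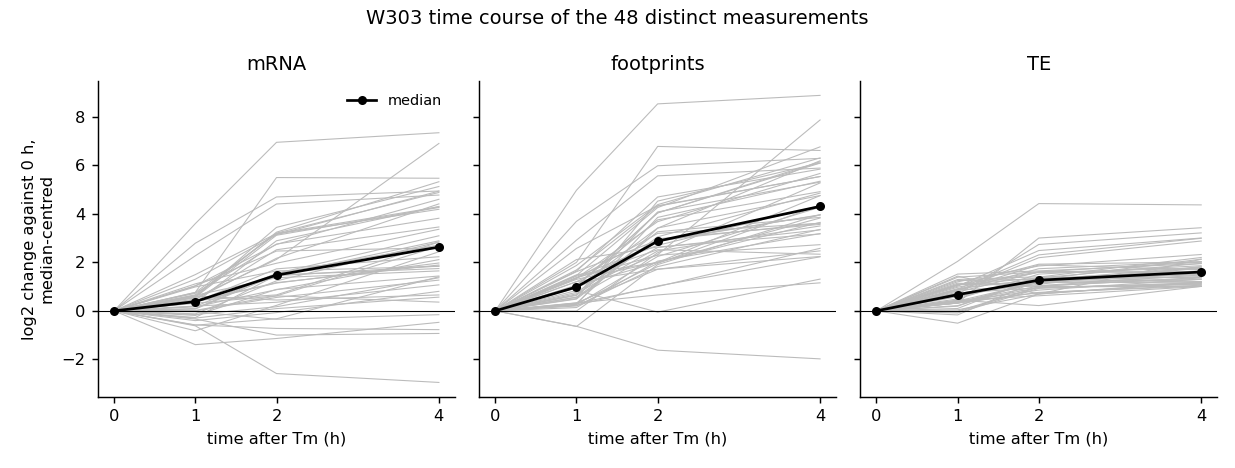
Log2 change against 0 h in W303 cells at 1, 2 and 4 h after Tm, minus the median over 5097 ORFs, for mRNA, footprints and TE. Grey lines are the 48 distinct measurements and the black line their median. The median TE change of the 48 is 0.67 at 1 h, 1.27 at 2 h and 1.60 at 4 h.

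FUN19 had 0.812 and 0.861 cpm of footprints in W303 at 0 h, 1.61 cpm at 1 h, 44.1 cpm at 2 h and 174 cpm at 4 h. The mRNA of FUN19 had 10.3 and 11.1 cpm at 0 h, 12.9 cpm at 1 h, 44.8 cpm at 2 h and 118 cpm at 4 h. The footprints at 0 h and 1 h were counts of 4, 9 and 10, while the library of 2 h held 256. Between 1 h and 2 h footprints differed by a larger factor than mRNA, and the log2 TE difference was 2.67.

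ASP3 had 4.06 and 4.21 cpm of footprints in W303 at 0 h, 15.3 cpm at 1 h, 50 cpm at 2 h and 108 cpm at 4 h, with 178 and 161 cpm of mRNA at 0 h, 274 cpm at 1 h, 321 cpm at 2 h and 432 cpm at 4 h. Footprints were higher at each later time and mRNA by smaller factors, and the log2 TE difference between 2 h and 1 h was 1.47. YGR109W-B had 3.05 and 3.35 cpm of footprints at 0 h, 4.66 cpm at 1 h, 17.1 cpm at 2 h and 32.7 cpm at 4 h, while its mRNA was at 24.7 and 25.7 cpm at 0 h, 21.0 cpm at 1 h, 17.3 cpm at 2 h and 21.3 cpm at 4 h. Footprints were higher at each later time, while mRNA at the treated times lay below the untreated libraries, and the log2 TE difference between 2 h and 1 h was 2.06. The annotation has YGR109W-A, the Gag ORF of the same element, over 873 of the 4645 bases of YGR109W-B, and reads of that stretch cannot be told apart.

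Lists of genes of known pathways were set beside the 51 ORFs, which make up 1% of the kept ORFs. The general stress list of 28 genes induced by Msn2 and Msn4, the activators of the general stress response, held 5 of them (DCS2, HSP26, PGM2, TSL1 and XBP1). In eS7A-4KR mRNA rose for 21 of the 28 and TE for 1, and the median log2 change was 0.86 for mRNA and 0.06 for TE. For this and the lists below, mRNA rose for 17.3% and TE for 0.378% of all ORFs tested. mRNA fell for 1 gene of the general stress list, 2 of the cell wall list and 0 of the nitrogen and autophagy lists, against 13.5%. The list of nitrogen catabolite repression, genes used when good nitrogen sources run out, held the 4 ASP3 copies, and the 24 of its genes that were tested had TE rises for 4, which are these copies, and mRNA rises for 12. PDR10 came from the list of ABC transporters, in which TE rose for 2 of 13. GSC2 came from the cell wall list, in which mRNA rose for 6 of 18, ATG32 from the autophagy list, in which mRNA rose for 17 of 37, and ADH4 from the list of metal handling.

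The list of 8 UPR targets of Hac1 (KAR2, PDI1, ERO1 and others) held none of the 51. mRNA of all 8 rose in eS7A-4KR, against 17.3% of all ORFs tested, and TE of 0 did, against 0.378%. By the formula of the selection, the median log2 TE change of this list was 0.23 in eS7A-4KR, −0.03 in eS7A-WT and −0.02 in W303. The lists of mRNAs with regulatory upstream ORFs, the iron regulon, amino acid biosynthesis under Gcn4, phosphate starvation, the pheromone response and meiosis held none either. At a share of 1% lists of these lengths would mostly hold none, and nothing is read from this.

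The threshold of 1 divides ORFs with nearly the same values. Just inside were THI11, with 1.32 in eS7A-WT and 1.01 in W303, HSP26, with 1.15 in eS7A-WT and 1.01 in W303, and YDR133C, with 2.53 in eS7A-WT and 1.01 in W303. Just outside were WSC2, a sensor of cell wall stress, with 0.998 in eS7A-WT and 0.996 in W303, NQM1, a transaldolase, with 0.996 in eS7A-WT and 1.38 in W303, and CSR2, an α-arrestin, with 0.98 in eS7A-WT and 1.69 in W303. In eS7A-4KR the changes were 0.70 for THI11, 0.51 for HSP26 and −0.53 for YDR133C inside the threshold, and 0.53 for WSC2, 0.08 for NQM1 and 0.21 for CSR2 outside it. Footprints of WSC2 were at 45.4 and 34.6 cpm in eS7A-4KR at 4 h, against 17.2 and 9.83 cpm at 0 h, those of NQM1 at 40 and 30 cpm, against 19 and 17.1 cpm, and those of CSR2 at 137 and 104 cpm, against 55.4 and 38.1 cpm. In each of these 3 the 4 h libraries lay above the 0 h libraries.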

How the data were processed

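Ribosome footprints were sequenced in 13 and RNA in 12 yeast libraries. The authors mapped reads to the yeast transcriptome, removed duplicates by random barcodes, assigned footprints to A sites within length ranges that differed by strain and time, and deposited whole-number counts per ORF. The submitters' processing notes name CASAVA 1.8, Bowtie2 2.0.6, TopHat2 2.0.7 and the build sacCer3. RNA-seq used rRNA-depleted total RNA and a stranded kit. How reads of near-identical ORFs were split is not given in the sources used here.

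Symbols and positions came from RefSeq (R64), which named 6008 of 6696 ORFs. Counts were fitted with edgeR 4.0.16 in R 4.3.3 (quasi-likelihood test, TMM within each assay, 1 group per strain, time and assay, ORFs with an average of 10 or more counts in footprint and in RNA-seq libraries, Benjamini-Hochberg adjustment, threshold 0.01), with the 15 eS7A libraries in 1 fit and the 10 W303 libraries in another. TE was the difference between footprint and RNA-seq contrasts. Tested on simulated data with 200 changed genes at a log2 change of 2, the eS7A fit recovered 99.5% with 2 false calls among 5563 genes. The simulation gave every gene the same spread and held no replicate effect. Its change is larger than the largest TE change called for a selected ORF, 1.51 for ASP3. Recovery at the sizes seen here was not tested, and an ORF that was not called may still have changed. As W303 had 1 library per assay at 1 h and 2 h, calls of its fit are not used. DESeq2 1.42.0 was an alternative, as were other scalings, filters, thresholds, replicate blocks and leaving out single libraries.

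The selected ORFs, the role groups and the gene lists were chosen with earlier results of these data known. Every selected ORF was named. Values per library were given for the 8 with the largest smaller change in W303 and eS7A-WT, those called for TE, those that the unused W303 fit called, the 4 with the largest fall and the 4 with the largest rise of mRNA in eS7A-4KR, members of the lists, and the 3 ORFs on each side of the threshold. The second untreated eS7A-WT RNA-seq library was not analysed here, and promoter motifs were not searched.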

Additional observations from a re-analysis of the deposited data

Results flagged for a closer look

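YDR133C was the 1 named ORF whose TE moved in opposite directions in every pairing of libraries of the eS7A strains. The annotation used here does not list YDR133C, so its overlap with neighbouring ORFs was not checked. Whether its reads belong to another ORF is not known. The log2 TE change was −0.53 in eS7A-4KR, where the 16 combinations of single libraries ran from −0.72 to −0.34, and 2.53 in eS7A-WT, where the combinations ran from 1.87 to 3.21. The difference between the strains was not tested, since the eS7A-WT value chose the ORF. Its RNA-seq values were 71.3 and 65.5 cpm at 4 h against 73.7 and 78.9 cpm at 0 h in eS7A-4KR, and 16.7 and 20.4 cpm at 4 h against 90.6 cpm at 0 h in eS7A-WT.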

How the results depend on the processing

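Of the selected ORFs, 9 had called TE in eS7A-4KR. This count was 4 with total counts in place of TMM, 3 with the newer quasi-likelihood method, 18 at an adjusted p below 0.05 and 14 with the eS7A-4KR libraries alone, and 7 to 13 with TMM over all libraries, DESeq2 or other count filters. Without single libraries it ran from 5 to 17. The mRNA count of 40 was 25 with total counts and 29 to 43 otherwise, and the footprint count of 48 in either direction was 41 to 49. A planned edgeR fit of W303 at 2 h against 1 h, both single libraries, called 6 and, without a filter on low counts, 0, and its calls are not used. The number of ORFs selected, 51, was 78 with no median subtracted, 42 to 60 under other pseudocounts and count minimums, and 47 to 57 without single libraries. By the formula of the selection, the 11 at 1 or more in eS7A-4KR became 6 to 15 without single libraries, and the median of 0.62 became 0.45 to 0.69, both lowest without replicate 2 of the untreated footprints. The causes were not tested.

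With the replicate number as a block, 21 of the selected ORFs had called TE in eS7A-4KR, and 24 with the block within each assay, in both cases with ADR1, CLG1, KNS1, KSP1 and SKM1 of signalling and transcription. Deviations of same-numbered libraries correlated at 0.52 to 0.69 in footprints and at −0.39 to 0.05 in RNA-seq. Footprint libraries of the same number thus shared deviations, and the RNA-seq libraries did not show this. The main fit has no block and leaves the shared part in its spread. With the RNA-seq numbers of eS7A-4KR at 4 h crossed, an alternative chosen after seeing the data, the count was 24.

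For 23 named measurements under 19 alternatives, 356 of 431 TE values in eS7A-4KR kept their direction and their side of the threshold, 32 lost the call, 35 gained it and 8 changed sign. Without single libraries YGR201C ran from −0.037 to 0.70, AI1 from −0.017 to 4.34, ADH4 from −0.54 to 0.51 and TSL1 from −0.035 to 0.15. Untreated footprint counts under 10 limit 23 of the 51 selected ORFs in W303 or eS7A-WT.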
